A study of Triticum turgidum subsp. durum with 20 samples.

Results

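The genes described here are the high-confidence gene models that start in the middle of a durum wheat chromosome. A gene belonged to the group when its start lay between 35% and 65% of the largest end coordinate that the count table gives for its chromosome, and when it had at least 200 counts over all libraries. On the 14 chromosomes of the A and B genomes, 7243 genes met this rule, out of 35964 high-confidence genes with at least 200 counts. The remaining 28721 are called other genes below. The rule used position and total count, and no comparison between stages entered it. The total sums all stages, however, so a gene with few counts could reach the minimum through the stage where it was high. Middle genes numbered 3063 on the A chromosomes and 4180 on the B chromosomes, and 196 (6A) to 850 (5B) on a single chromosome. The name is therefore a matter of coordinates, and the positions of the centromeres were not analysed here.

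Wheat chromosomes are large and uneven. Towards their ends they are rich in genes and recombine often, whereas the interior around the centromere is rich in transposable elements, carries few genes and recombines rarely. Genes of the interior are often described as more conserved in sequence and more widely expressed than genes near the ends. While the apex changes from making leaves to making spikelets, meristem identity genes such as those of the MADS-box family are switched on, and the question here is whether genes of the interior take part in this change to the same extent as the rest.

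RNA was measured in hand-dissected apices of the tetraploid cultivar Kronos at 5 Waddington stages (W1, then W2, then W3.0, W3.25 and finally W3.5), with 4 libraries at each stage and 20 in all. W1 is the vegetative apex, W3.25 the lemma primordium stage and W3.5 the terminal spikelet stage. The study's Results and Methods name W2 and W3.0 differently, so these are given by number alone. Every plant carried the spring VRN-A1 allele with a deletion in its intron 1 and the Ppd-A1a allele of reduced photoperiod sensitivity, and all grew in chambers under long days, so that all groups shared these. Each library is a pool of apices harvested at the same time of day, with larger pools at W1 and W2 than at the later stages, and the replicates are separate pools. In a pool, fewer cells of a type and less RNA per cell cannot be told apart. Library totals ranged from 22229388 to 29655553 counts. Inflorescence markers were present at every stage, whereas shoot meristem markers were low and differed between stages. TtWUSa, a copy of the stem cell regulator WUSCHEL, had 0 to 21 counts per library. Its mean was 0.0179 TPM (transcript level scaled to gene span and library total) at W1 and 1.29 TPM at W3.0. The inflorescence identity gene VRN-A1 had 965 to 3583 counts per library. Transcripts of photosystem I subunit IV, a marker of green tissue, stood at 10.3 to 66.2 TPM and were at 0 in no library. Between W1 and W2 the mean rose from 13.5 to 53.6 TPM for the 5A gene and from 23.7 to 59.4 TPM for the 5B gene.

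High-confidence gene models were sparse in the middle of the chromosomes, but a larger share of them was transcribed in the apex. The middle covered 3034.4 Mb, 30.0% of the length of the 14 chromosomes, and held 3.68 high-confidence models per Mb, against 8.45 outside it. Of the 11165 models in the middle, 64.9% reached 200 counts (95% Wilson interval 64.0% to 65.8%), against 48.0% of the 59824 models outside (47.6% to 48.4%). Models with 0 counts in every library made up 15.8% in the middle and 27.6% outside. A higher share in the middle was seen on all 14 chromosomes, from 56.6% on 4A (against 50.4% outside) to 70.6% on 4B (against 54.4%). In bins of 5% of chromosome length, the share reaching 200 counts had no step at the bounds of the rule. It was 65.6% at 30% to 35% and 67.8% at 35% to 40%, then 60.7% at 60% to 65% and 60.3% at 65% to 70%. The lowest shares were at the chromosome ends, with 35.5% in the first bin and 36.0% in the last. The intervals given for shares of genes cover counting only and treat genes as independent.

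Middle genes were longer and deeper in counts than other genes, but had a similar level per length. Their median span was 4064 bp, against 3575 bp for other genes, and their median total was 5953 counts, against 4613. The median TPM was 6.29 for middle genes and 6.25 for other genes. Replicates also lay closer together. The median coefficient of biological variation was 7.26% in middle genes and 8.02% in other genes, and the median standard deviation of log2 CPM within a stage was smaller in middle genes at each of the 5 stages, from 0.101 against 0.116 at W3.5 to 0.150 against 0.164 at W1. Within 5 classes of total count, the median coefficients of middle and other genes lay closer. They were 16.9% in both in the lowest class, 7.24% against 7.53% in the third and 5.53% against 5.71% in the highest. The span of 15.2% of middle genes overlapped another gene model, against 11% of other genes. Within the middle these values were not even, since genes starting at 35% to 50% of the chromosome had a median of 7491 counts and a span of 4637 bp, and those at 50% to 65% had 5316 counts and 3811 bp. Count, span, overlap and replicate spread thus move together with position. Their part in the differences below was not tested, but the differences in shares called are also given within classes of count and span.

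Transcript levels of middle genes varied less between stages than those of other genes. The range between the highest and the lowest stage mean had a median of 0.411 log2 units in middle genes and 0.465 in other genes. A range of at least 1 log2 unit was found in 15.9% of middle genes and in 21.9% of other genes. From 35% to 50% of the chromosome the median range was 0.374, with 12.6% of genes at 1 log2 unit or more. From 50% to 65% these were 0.439 and 17.9%, closer to the other genes. The range was not compared within classes of count. A change over the 5 stages was called for 4791 middle genes, or 66.1%, against 67.5% of other genes and 63.1% of all 48336 gene models tested (edgeR's quasi-likelihood F test, Benjamini-Hochberg adjusted p of at most 0.05). Both classes were thus about equally often called, with a smaller range in the middle. Among the genes called, W1 was the stage of the highest mean for 46.8% of middle genes and 49.2% of other genes, W2 for 5.80% and 9.07%, and W3.5 for 24.8% and 20.1%.

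For each pair of stages, a gene is called a DEG (differentially expressed gene) when edgeR and DESeq2 both gave an adjusted p of at most 0.01 in the same direction. All 7243 middle genes and all but 1 of the other genes passed the filter on low counts and were tested. Log2 fold changes are later over earlier stage. Consecutive comparisons share libraries and are not independent of each other. Shares of middle and other genes are set side by side with counting intervals and with no test, since genes are not replicates of a stage.

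Between W2 and W3.0, fewer middle genes fell. Lower levels at W3.0 were called for 766 middle genes, or 10.6%, against 14.2% of other genes and 11.6% of all gene models tested. The difference was -3.59 percentage points (95% Newcombe interval -4.39 to -2.76). Rises were equally frequent, at 8.34% of middle genes, 8.35% of other genes and 7.64% of all gene models tested. In either direction, 18.9% of middle genes and 22.5% of other genes were DEGs, against 19.2% of all gene models tested. The median log2 fold change was 0.023 in middle genes and -0.019 in other genes. DEGs with at least a 2-fold change numbered 455 middle genes and 2607 other genes (background 8.12%), and falls of this size were called for 4.14% of middle genes and 6.42% of other genes (background 5.61%). Rises of at least 2-fold were called for 2.14% and 2.65% (background 2.50%).

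The smaller share of falls between W2 and W3.0 was found on all 14 chromosomes, from 4.08% against 11.5% on 6A and 4.32% against 15.2% on 4A to 13.2% against 14.6% on 1B and 12.8% against 13.6% on 5B, where the values were closest. It also held in each of 5 classes of total count and in each of 5 classes of gene span. Averaged within the classes of count the difference was -3.31 percentage points, and within the classes of span -2.79. Both sets of classes were chosen after seeing the data. The longest class, with spans from 6237 bp, had 4.46% of falls among middle genes and 8.43% among other genes. With each of the 20 libraries left out in turn, the difference stayed between -3.83 and -3.34.

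**Figure D1:**
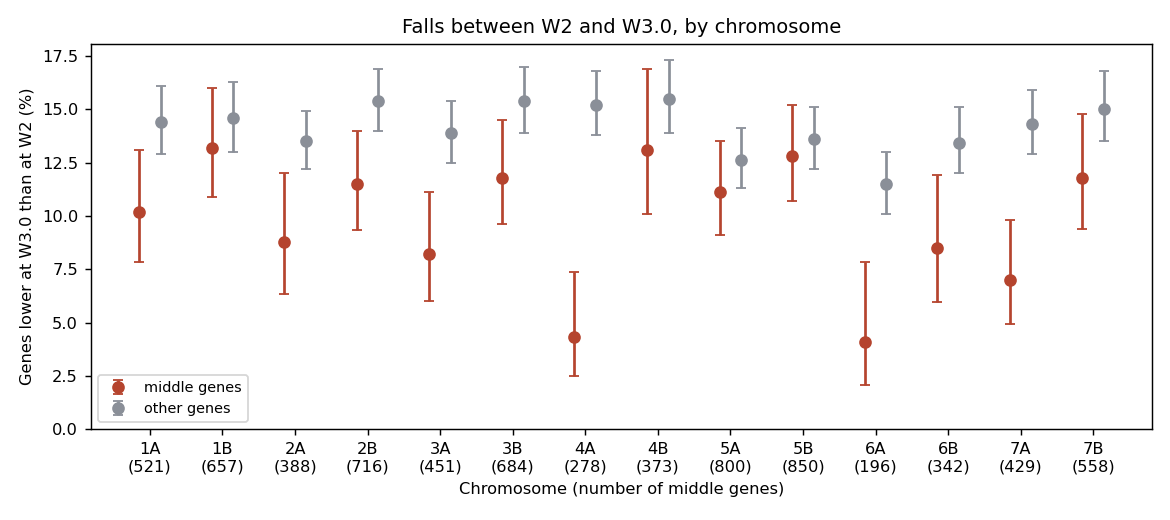
Share of genes called lower at W3.0 than at W2 (y axis, percent of genes tested) on each chromosome (x axis, with the number of middle genes), for middle genes (red, left) and other genes (grey, right). Bars are 95% Wilson intervals. The middle genes lie below the other genes on all 14 chromosomes, and most clearly on 4A (4.32% against 15.2%) and 6A (4.08% against 11.5%).

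The share of falls followed position along the chromosome without a step at the bounds of the rule. In bins of 5% of chromosome length it was 16.2% in the bin at the start of the chromosome, 10.7% at 20% to 25% and 8.36% at 30% to 35%, outside the rule. The 3 bins from 35% to 50% had 7.86%, 8.53% and 8.07%. Beyond them the share was 9.92% at 50% to 55%, 11.6% at 55% to 60% and 13.6% at 60% to 65%, close to the 13.4% just outside. The highest share was 16.4%, at 70% to 75%, and the last bin of the chromosome had 15.8%. Low values therefore covered 30% to 50% of the chromosome, and the outer bins of the middle on the far side resembled their neighbours outside. From 35% to 50%, 219 of 2683 genes fell (8.16%), against 547 of 4560 (12.0%) from 50% to 65%. Rises in these bins ran between 7.14% and 9.40%, with no such course.

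**Figure D2:**
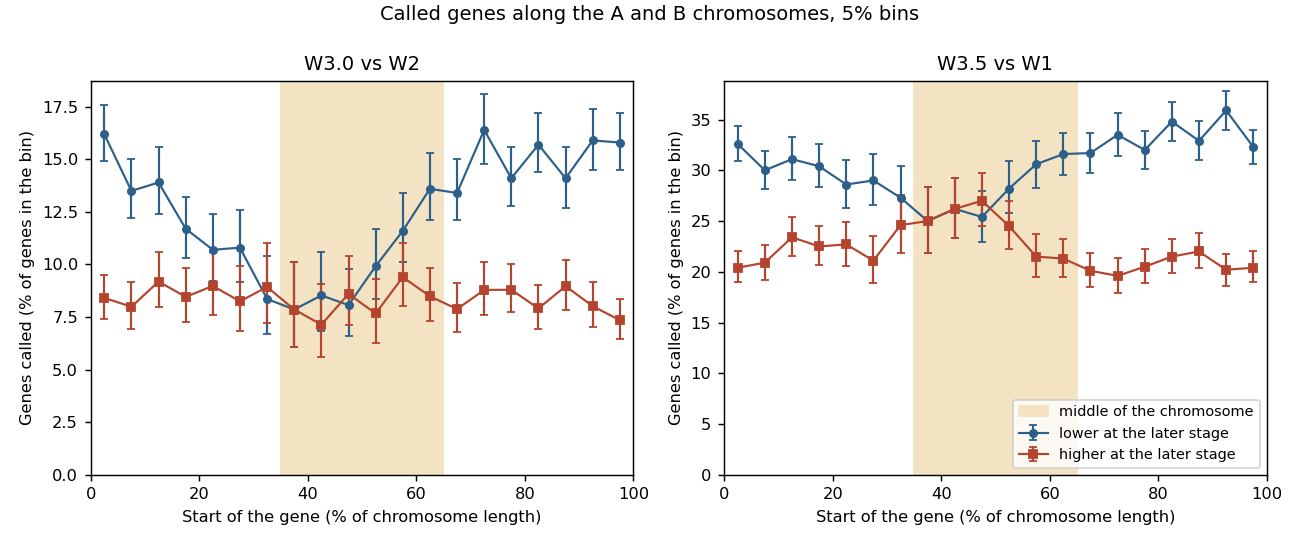
Genes called lower (blue circles) or higher (red squares) at the later stage, as percent of the genes tested in each bin of 5% of chromosome length (y axis), against the start of the gene as percent of chromosome length (x axis), for W3.0 against W2 (left) and W3.5 against W1 (right). The middle is shaded and bars are 95% Wilson intervals. Falls between W2 and W3.0 are least frequent from 30% to 50% (7.86% to 8.53%) and more frequent on both sides, up to 16.4% at 70% to 75%, and rises from W1 to W3.5 are most frequent at 45% to 50% (27.0%).

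Over the whole time course, W3.5 against W1, middle genes rose more often and fell less often than other genes. The differences lay mainly with genes starting at 35% to 50% of the chromosome. Rises were called for 1716 middle genes, or 23.7%, against 21.2% of other genes and 22.3% of all gene models tested, a difference of 2.50 percentage points (1.42 to 3.60). Falls were called for 2070 middle genes, or 28.6%, against 32.1% of other genes and 26.9% of all gene models tested, a difference of -3.47 (-4.64 to -2.29). In either direction the shares were 52.3% and 53.2%, with 49.2% of all gene models tested, and the interval of their difference held 0 (-2.26 to 0.31). The surplus of rises was made of small changes. Rises under 2-fold were called for 18.5% of middle genes and 14.8% of other genes. Rises of at least 2-fold turned the order round, with 5.22% of middle genes and 6.43% of other genes (background 6.91%). Falls of at least 2-fold were called for 7.29% of middle genes and 10.9% of other genes (background 10%), whereas falls under 2-fold were about as frequent in both, at 21.3% and 21.1%. In either direction, 906 middle genes and 4991 other genes were DEGs of at least 2-fold (background 17.0%). By position, 26.2% of genes from 35% to 50% rose and 25.5% fell. From 50% to 65%, 22.2% rose and 30.4% fell, closer to the other genes. In the bin at 30% to 35%, outside the rule, 24.6% rose and 27.3% fell.

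More rises in the middle were found on 11 chromosomes, with 1B, 4B and 5B as exceptions, and fewer falls on 13, with 4B as the exception. Within classes of gene span the difference averaged 1.37 percentage points for rises and -2.14 for falls, and within classes of total count 2.34 and -4.12. The values of the 2 genomes lay apart. On the A chromosomes 26.3% of middle genes rose and 26.2% fell, and on the B chromosomes 21.8% rose and 30.4% fell. Other genes had 22.2% of rises and 31.1% of falls on A, and 20.1% and 33.1% on B. Between W2 and W3.0 likewise, 8.59% of middle genes fell on A and 12.0% on B. The difference between the genomes was not tested.

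**Figure D3:**
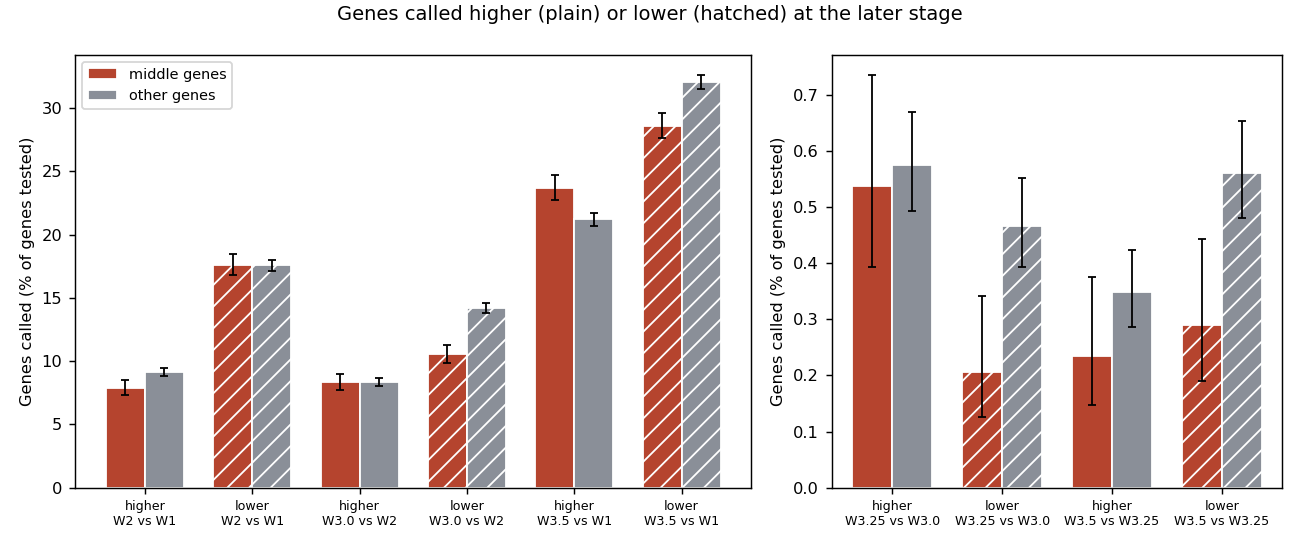
Genes called higher (plain bars) or lower (hatched bars) at the later stage, as percent of the genes tested (y axis), in middle genes (red, left of each pair) and other genes (grey, right), for the comparisons named under the bars. Error bars are 95% Wilson intervals, and the right panel has its own axis from 0. Falls between W2 and W3.0 (10.6% against 14.2%) and from W1 to W3.5 (28.6% against 32.1%) are less frequent in middle genes, and rises from W1 to W3.5 more frequent (23.7% against 21.2%).

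Between W1 and W2 the classes differed little in shares called, but the falls differed in size. Lower levels at W2 were called for 17.6% of middle genes and 17.6% of other genes, with 14.6% of all gene models tested. Rises were called for 7.90% of middle genes and 9.13% of other genes, with 8.30% of all gene models tested, a difference of -1.23 percentage points (-1.92 to -0.51). In either direction 1849 middle genes were DEGs, or 25.5%, against 26.7% of other genes and 22.9% of all gene models tested. That difference, -1.17 percentage points (-2.28 to -0.03), was -0.59 without W1 replicate 4, -1.77 within classes of count and -0.91 within classes of span. DEGs of at least 2-fold were again fewer in the middle, 376 of 7243 against 2063 of 28720 other genes (background 6.53%). Falls of at least 2-fold were called for 3.48% of middle genes and 4.83% of other genes. Falls under 2-fold went the other way, with 14.2% and 12.7%. More rises in the middle were seen on 3 of the 14 chromosomes, and fewer falls on 6.

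After W3.0 few genes of either class were called. From W3.0 to W3.25, 39 middle genes rose (0.538%, against 0.575% of other genes and 0.474% of all gene models tested) and 15 fell (0.207%, against 0.467% and 0.348%). In either direction the shares were 0.746% and 1.04%, with 0.821% of all gene models tested. That difference, -0.30 percentage points, was -0.18 without W3.25 replicate 3 or 4, -0.30 within classes of count and -0.26 within classes of span. From W3.25 to W3.5, 17 middle genes rose (0.235%, against 0.348% of other genes and 0.288% of all gene models tested) and 21 fell (0.290%, against 0.561% and 0.414%), and in either direction the shares were 0.525% and 0.909%, with 0.701% of all gene models tested. At least 2-fold changes were called for 22 and 15 middle genes in these comparisons (background 0.333% and 0.213%). Single libraries moved these counts. From W3.0 to W3.25 the 54 middle genes called became 26 without W3.0 replicate 3, 29 without W3.0 replicate 4, 32 without W3.25 replicate 3, 32 without W3.25 replicate 4 and 35 without W3.25 replicate 2. From W3.25 to W3.5 the 38 called became 20 without W3.5 replicate 3, 21 without W3.25 replicate 1 and 24 without W3.5 replicate 2. They became 85 without W1 replicate 1, which is not in this comparison but enters the shared fit. With W3.25 and W3.5 alone in the fit, 97 were called. In the last comparison the difference between the classes, -0.38 percentage points, was -0.07 or -0.08 without W3.5 replicate 3, 2 or 1, -0.13 or -0.14 without W3.25 replicate 1 or 3, and -0.57 without W3.5 replicate 4. Within classes of count it was -0.42, and within classes of span -0.34.

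The classes were also compared library by library, with no test. For each library, the deviation of every gene from its mean log2 CPM over all libraries was taken, and the median deviation of other genes was subtracted from that of middle genes. By stage the mean was -0.0207 ± 0.00924 at W1, then -0.0284 ± 0.00668 at W2, followed by 0.01 ± 0.0112 at W3.0, by 0.0120 ± 0.00573 at W3.25 and by 0.0257 ± 0.00538 at W3.5 (n = 4 libraries, SD). All 8 libraries of W1 and W2 lay below 0 and all 8 of W3.25 and W3.5 above it, whereas W3.0 ranged from -0.0039 to 0.0232. Since each gene was centred on its own mean, 0 is no outside reference, and the values show only the order of the libraries. The libraries of W2 and W3.0 did not overlap. Middle genes took 19.18% ± 0.151 of all counts at W1, then 18.94% ± 0.0539 at W2, followed by 19.19% ± 0.159 at W3.0, by 19.23% ± 0.0626 at W3.25 and by 19.33% ± 0.0251 at W3.5 (n = 4 libraries, SD). In this share the W1 libraries, from 19.06% to 19.38%, lay above all W2 libraries. W3.0 replicate 4, at 18.97%, lay within the W2 libraries, which ran from 18.87% to 18.99%.

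**Figure D4:**
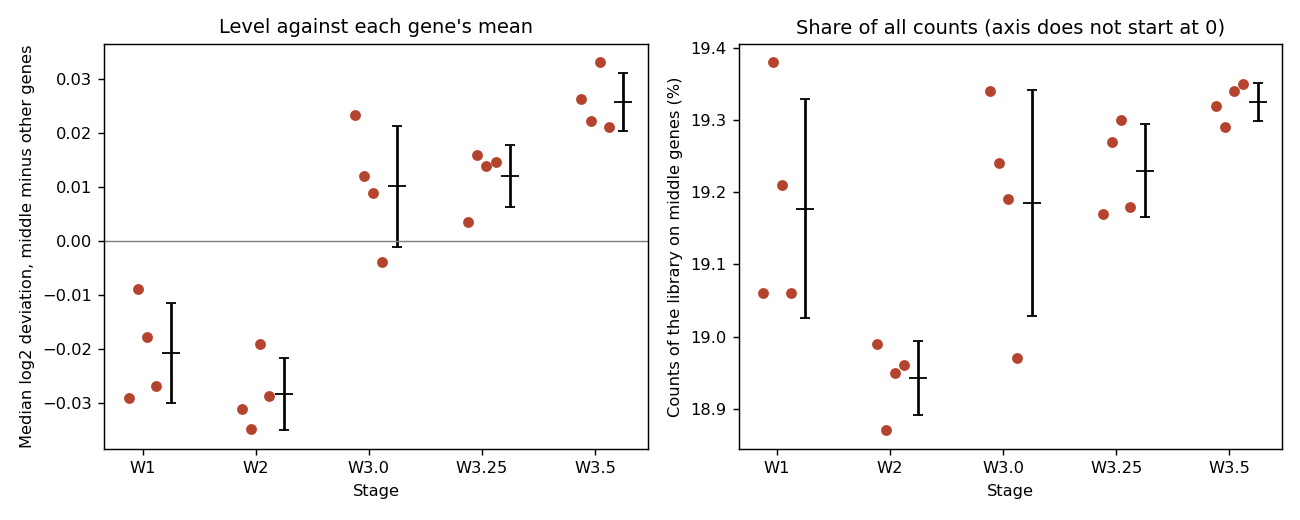
Left, median log2 deviation of middle genes minus that of other genes in each library (y axis, log2 units) by stage (x axis). Right, share of the counts of each library on middle genes (y axis, percent, not starting at 0). Points are libraries, and the line and bar beside them give mean and SD (n = 4). The left panel shows W1 and W2 below 0 and W3.25 and W3.5 above 0, where 0 is set by each gene's mean over all libraries. The right panel shows W2 lowest at 18.94%.

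Among 137 gene models that the study names in its text, its homoeolog, WOX and CLE panels and the part of its network used here, 14 are middle genes. They include 2 MIKC MADS-box genes (transcription factors of floral and meristem identity), 4 WOX genes (WUSCHEL-related homeobox transcription factors of meristems and organ primordia), 1 CLE gene (small secreted signalling peptides), 5 other transcription factors and 2 helicase-related genes. From W1 to W3.5, 10 of the 14 rose and 2 fell, where 22.3% of all gene models tested rose and 26.9% fell. Between W2 and W3.0, 7 rose and 2 fell, where 7.64% of all gene models tested rose and 11.6% fell. Of the 94 named genes outside the middle that were tested, 53 rose and 26 fell from W1 to W3.5, and 43 rose and 24 fell between W2 and W3.0. The study chose many of these genes on these libraries, so that their direction is not independent evidence. A further 5 named genes lie in the middle but had fewer than 200 counts in all: TtCLE13b with 175 counts, TtCLE19b and TtWOX6b with 9 each, TtCLE3a with 8 and TtCLE3b with 1.

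**Figure D5:**
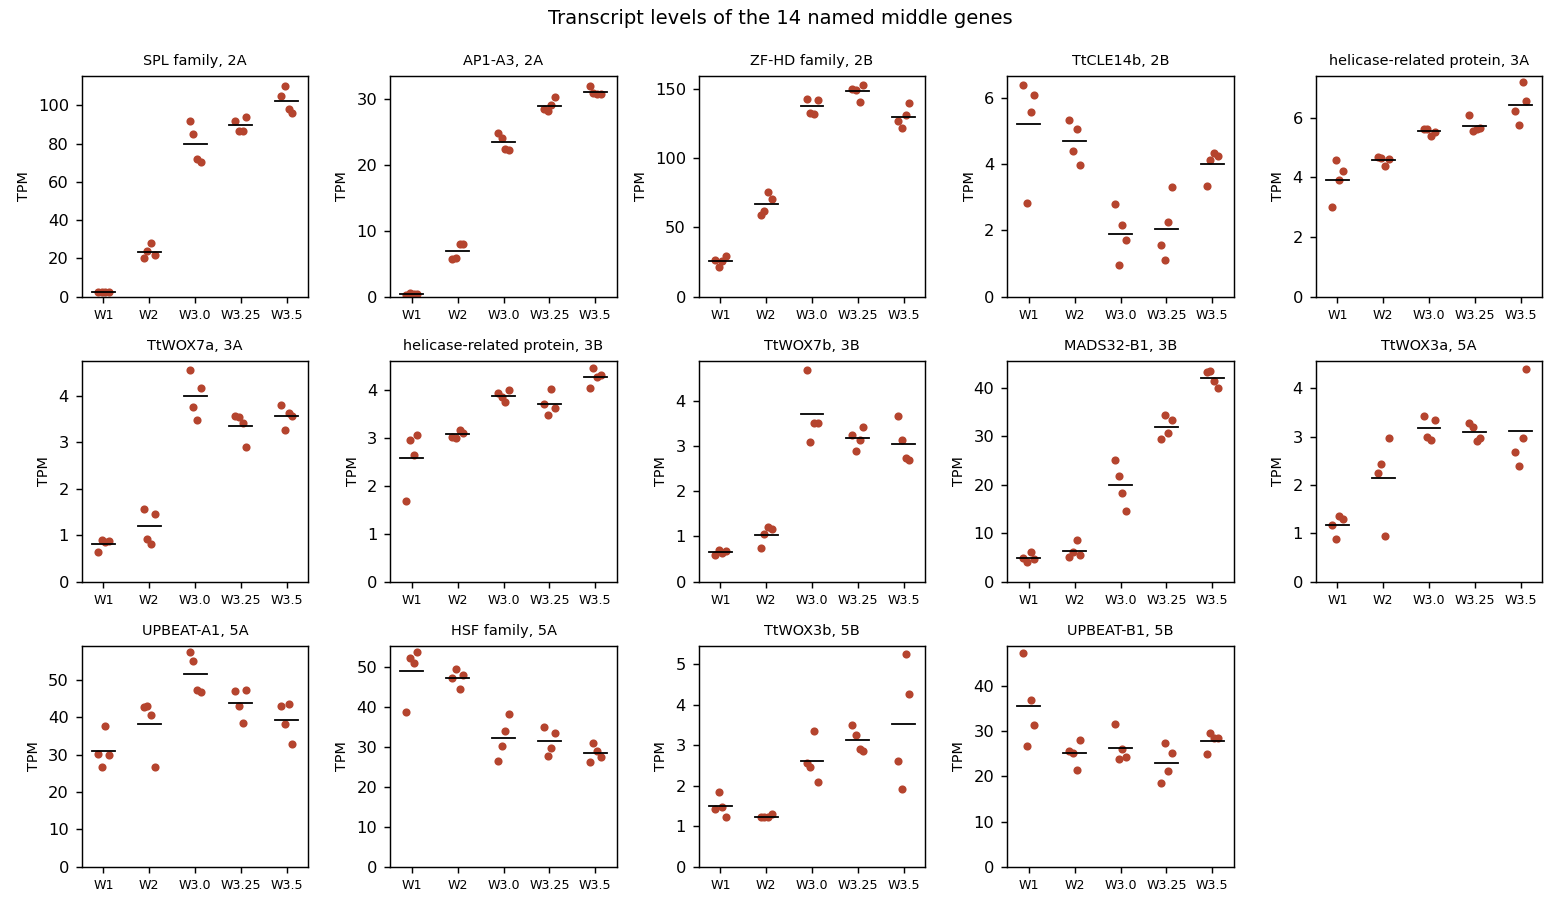
Transcript level (y axis, TPM by gene span, each panel with its own axis from 0) of the 14 named middle genes in each library by stage (x axis). Points are libraries and lines the mean of 4. The SPL gene, AP1-A3 and MADS32-B1 are highest at W3.5, the HSF gene is lower from W3.0 on, and TtCLE14b is lowest at W3.0.

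The largest changes among them were in regulators of the flowering transition. TraesCS2A02G232400, on chromosome 2A from 276276336 to 276279155 (IWGSC RefSeq v1.0, minus strand), encodes a protein of the SPL family, plant transcription factors that act in the change from juvenile to adult and floral growth. It had 20.0, 23.6, 27.8 and 21.6 TPM in the W2 libraries and 2.60, 2.31, 2.41 and 2.18 TPM in the W1 libraries. At W3.0 it had 91.7, 84.8, 71.7 and 70.6 TPM, so that W1, W2 and W3.0 did not overlap. Its increase was 3.18 log2 units between W1 and W2 (adjusted p = 2.94e-16, SE 0.121) and 1.71 between W2 and W3.0 (adjusted p = 1.31e-13, SE 0.088), and it averaged 102 ± 6.54 TPM at W3.5 (SD, n = 4). Here and below, adjusted p-values of single genes are those of edgeR's quasi-likelihood test over all gene models. The gene starts at 35.38% of the chromosome, just inside the bound.

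AP1-A3 (TraesCS2A02G261200), a MADS-box gene of the APETALA1 and FRUITFULL group that promotes spikelet meristem identity, starts at 52.76% of chromosome 2A. Its libraries had 31.9, 30.9, 30.7 and 30.7 TPM at W3.5 and 0.202, 0.464, 0.402 and 0.431 TPM at W1, a log2 fold change of 6.12 (adjusted p = 5.14e-22, SE 0.130). The lowest W3.5 library lay far above the highest W1 library. MADS32-B1 (TraesCS3B02G318300), at 61.78% of chromosome 3B, belongs to a grass-specific MADS-box group with a role in floral organ identity in rice. Its libraries had 29.4, 34.3, 30.7 and 33.3 TPM at W3.25 and 25, 21.8, 18.2 and 14.6 TPM at W3.0. They did not overlap, and the log2 fold change was 0.66 (adjusted p = 0.00295, SE 0.123). It was the only one of the 14 called between W3.0 and W3.25, and the call was lost without W3.0 replicate 3 or 4 or W3.25 replicate 2 or 4 (log2 fold change 0.54 to 0.78 over all libraries left out).

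TraesCS2B02G322200, a gene of the zinc finger homeodomain (ZF-HD) family on chromosome 2B from 460550559 to 460551799, had 143, 133, 132 and 142 TPM at W3.0 and 58.7, 62.1, 75.9 and 70.3 TPM at W2. It rose by 0.97 on the log2 scale (adjusted p = 2.61e-10, SE 0.078), after a rise of 1.26 from W1 (adjusted p = 1.79e-11, SE 0.086). TraesCS5A02G237600 of the heat shock factor (HSF) family, regulators of the response to heat and other stress, went the other way. Its libraries had 26.4, 30.3, 34.1 and 38.3 TPM at W3.0 and 47.3, 49.5, 44.6 and 48.1 TPM at W2, a log2 fold change of -0.62 (adjusted p = 4e-06, SE 0.089).

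Both TtWOX7 copies lie in the middle, TtWOX7a on chromosome 3A (TraesCS3A02G247200, at 61.97%) and TtWOX7b on 3B (TraesCS3B02G272200, at 52.77%). TtWOX7a had 4.55, 3.75, 3.47 and 4.17 TPM at W3.0 and 1.56, 0.925, 0.817 and 1.46 TPM at W2. TtWOX7b had 4.68, 3.08, 3.52 and 3.52 TPM at W3.0 and 0.745, 1.05, 1.21 and 1.16 TPM at W2. Both rose with no overlap, by 1.66 (adjusted p = 3.26e-09, SE 0.154) and 1.75 (adjusted p = 2.69e-09, SE 0.161) on the log2 scale. The TtWOX3 copies, relatives of genes that act in the outgrowth of leaf margins in maize, are on 5A (TraesCS5A02G157300) and 5B (TraesCS5B02G156400). From W1 to W3.5 they rose by 1.13 (adjusted p = 5.62e-04, SE 0.261) and 0.98 (adjusted p = 0.00174, SE 0.256), on 10 to 48 and 12 to 65 counts per library over all stages. The call of TtWOX3b was lost without W1 replicate 4 or W3.5 replicate 3 or 4. TtCLE14b (TraesCS2B02G342700, 309 bp) had 3 to 8 counts per library at W3.0 and 12 to 16 at W2, a log2 fold change of -1.36 (adjusted p = 0.00594, SE 0.368), which was no longer called in 15 of the 20 fits with a library left out.

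Homoeologous copies in the middle did not always move alike. UPBEAT-B1 (TraesCS5B02G219300), related to a basic helix-loop-helix regulator of reactive oxygen balance in the Arabidopsis root, had 25.7, 25.2, 21.5 and 28.0 TPM at W2 and 47.4, 26.8, 37.0 and 31.4 TPM at W1. It fell by 0.63 on the log2 scale (adjusted p = 0.00193, SE 0.152), although the libraries overlapped and the call was lost without W1 replicate 1 or W2 replicate 3. UPBEAT-A1 (TraesCS5A02G220100) had 42.7, 42.9, 40.6 and 26.6 TPM at W2 and 30.2, 26.6, 37.7 and 29.9 TPM at W1, which was not called (log2 fold change 0.19, adjusted p = 0.342, SE 0.147). The difference between the copies was not tested. The helicase-related copies on 3A (TraesCS3A02G212600) and 3B (TraesCS3B02G242700) rose together from W1 to W3.5, by 0.46 (adjusted p = 3.15e-06, SE 0.071) and 0.48 (adjusted p = 5.81e-05, SE 0.090) on the log2 scale. The study lists both as upregulated between W2 and W3.0. In that step neither was called here (log2 fold change 0.20, adjusted p = 0.0354, and 0.27, adjusted p = 0.0263). The W2 and W3.0 libraries of each copy nevertheless did not overlap, with W3.0 higher. All 20 libraries entered 1 fit here, whereas the study describes pairwise comparisons of consecutive stages. Whether the calls differ for this reason was not tested.

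Most of the largest changes of middle genes were in genes that the sources used here do not name. By the rule of the 2 largest rises and falls in each comparison, 18 genes were picked, 15 of them on the B chromosomes, which hold 4180 of the 7243 middle genes. AP1-A3 was the only one of them with a name in these sources. Chromosome 5B gave 6 and 3B gave 5. TraesCS2B02G281000, on 2B from 387698476 to 387705670, rose most from W1 to W3.5. It had 15.8, 14.4, 14.6 and 11.9 TPM at W3.5 and 0.0572, 0.0944, 0.0423 and 0.0475 TPM at W1, on 4037 counts over the W3.5 libraries and 19 over the W1 libraries (log2 fold change 7.58, adjusted p = 1.32e-19, SE 0.222). TraesCS5B02G170000, on 5B from 314310696 to 314312015, had 120, 108, 73.8 and 58.2 TPM at W3.0 and 1.56, 0.954, 10.1 and 5.32 TPM at W2. The log2 fold change was 4.30 (adjusted p = 2.89e-11, SE 0.306), and 5.04 without W2 replicate 3, the highest of the W2 libraries.

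Falls of this step were as steep. TraesCS5B02G166300, on 5B from 308548305 to 308552970, had 0.0463, 0.0207, 0.122 and 0.0451 TPM at W3.0 and 2.17, 1.51, 2.25 and 2.03 TPM at W2. The log2 fold change was -5.07 (adjusted p = 4.90e-07, SE 0.630) on 11 counts over the W3.0 libraries and 358 over the W2 libraries, and it was -5.72 without W3.0 replicate 3. TraesCS1A02G176700, whose span overlaps 1 other gene model, averaged 7.79, 2.30, 0.133, 0.234 and 0.796 TPM from W1 to W3.5. It thus fell up to W3.0, with a log2 fold change of -4.16 between W2 and W3.0 (adjusted p = 5.76e-13, SE 0.237), and was among the largest rises between W3.25 and W3.5 (log2 fold change 1.71, adjusted p = 2.10e-04, SE 0.249). TraesCS1A02G149300 averaged 2.55, 0.991, 0.0814, 0.377 and 0.317 TPM. It also fell up to W3.0, but its later rise was called between W3.0 and W3.25 (log2 fold change 2.12, adjusted p = 0.00200, SE 0.385). Both stayed below their W1 level at W3.5.

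The late steps had few calls, but some were large. TraesCS6B02G256500, on 6B from 460927931 to 460929393, was called lower at each of the 4 steps. Mean TPM was 98 ± 8.65 at W1, then 72.8 ± 8.52 at W2, followed by 34.8 ± 6.63 at W3.0, by 12.7 ± 2.25 at W3.25 and by 3.87 ± 1.37 at W3.5 (n = 4 libraries, SD). No neighbouring stages overlapped, and the log2 fold change from W1 to W3.5 was -4.94 (adjusted p = 2.56e-18, SE 0.171). TraesCS5B02G189700, on 5B from 343825835 to 343827583, had 9.27, 8.27, 12.3 and 4.44 TPM at W3.5 and 0.330, 0.962, 1.19 and 1.81 TPM at W3.25 (log2 fold change 2.94, adjusted p = 1.93e-06, SE 0.306). Over the libraries of W1, W2 and W3.0 it had 3, 1 and 1 counts. TraesCS3B02G333400, which starts at 64.99% of chromosome 3B and so just inside the bound, had 0.826, 0.745, 0.644 and 0.358 TPM at W3.25 and 2.24, 4.38, 4.01 and 4.69 TPM at W3.0 (log2 fold change -2.59, adjusted p = 2.50e-06, SE 0.282). TraesCS5B02G145300 fell between the same stages by 2.73 on the log2 scale (adjusted p = 0.00340, SE 0.521), a call that was lost in 7 of the 20 fits with a library left out.

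Several genes of the vegetative apex were nearly silent later. Those named here reached the minimum total count of the rule only through their W1 counts. A gene as silent later but lower at W1 could therefore have been left out. Totals over all libraries were 356 counts for TraesCS3B02G317000, 470 for TraesCS7B02G259700, 335 for TraesCS3B02G306600 and 375 for TraesCS3B02G282500. TraesCS3B02G317000 on 3B and TraesCS7B02G259700 on 7B had 0 counts over the W3.5 libraries, against 336 and 339 over the W1 libraries. Against a floor of 3 counts over the 4 libraries of a stage they were at least 105-fold and 106-fold lower at W3.5. TraesCS3B02G306600 had 12 counts over the W2 libraries and 320 over the W1 libraries (log2 fold change -4.62, adjusted p = 1.44e-08, SE 0.427), and TraesCS3B02G282500 had 14 and 358 (log2 fold change -4.59, adjusted p = 3.34e-08, SE 0.478). In both, W2 replicate 4 held 9 of the W2 counts, and without it the log2 fold changes were -6.10 and -5.60.

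The 5 most abundant middle genes differed in their course. TraesCS5A02G246200, the highest by TPM, averaged 2055, 2588, 2888, 2759 and 2673 TPM from W1 to W3.5, and its rise of 0.22 on the log2 scale from W1 to W2 (adjusted p = 0.00401, SE 0.058) was its only call, lost in 5 of the 20 fits with a library left out. TraesCS4B02G204100, with 1362 to 1717 TPM, and TraesCS2B02G329300, with 1342 to 1728 TPM, were called in no comparison. TraesCS7B02G217900 fell by 0.83 on the log2 scale from W1 to W3.5 (adjusted p = 2.92e-11, SE 0.065), and TraesCS4B02G173700 by 0.44 (adjusted p = 1.08e-07, SE 0.055).

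The genes closest to the bounds of the rule show where it divides the chromosome. Just inside 35%, TraesCS2A02G231900 averaged 2.10 TPM at W3.5 and 1.84 TPM at W1. Just outside it, TraesCS5B02G133500 averaged 22.6 TPM at W3.5 and 21.1 TPM at W1. Just inside 65%, TraesCS4A02G198300 averaged 1.68 TPM at W3.5 and 0.692 TPM at W1. Just outside it, TraesCS2A02G294900 averaged 12.4 TPM at W3.5 and 12.6 TPM at W1.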

How the data were processed

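RNA-seq was made from 20 pools of wheat apices, 4 at each of 5 stages. The authors deposited raw read counts per gene model, not normalized, with chromosome, start, end and strand. Per the paper's methods, reads were aligned with STAR 2.7.5 to the A and B genomes and unassigned scaffolds of IWGSC RefSeq v1.0 and counted with featureCounts on annotation v1.1, version 2.0.0 by the submitters' processing notes. The 79047 models of the D genome hold 0 counts and were left out.

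Position is the start of a gene as percent of the largest end coordinate on its chromosome. All 20 libraries entered 1 fit in edgeR 4.0.16 (TMM, quasi-likelihood) and DESeq2 1.42.0 (R 4.3.3), on the 48336 models kept by filterByExpr (minimum count 10, total 15). DEGs needed p, adjusted by Benjamini-Hochberg, no higher than 0.01 in both tools. SE is the log2 fold change over the square root of F, derived here. TPM was computed from gene span, since exon lengths were not used, and log2 CPM with a prior count of 2. Scripts were tested on simulated counts. Tables were made with Python 3.11.15, pandas 2.3.3 and scipy 1.17.1, and figures with matplotlib 3.10.9. The median library total was 25121584.5 counts.

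The text names the middle genes that the study names, the 2 largest rises and the 2 largest falls among DEGs of each comparison, the 5 highest by TPM and those closest to the bounds. Members and lists were chosen with earlier results of these data known. Alternatives were other filters, tools, thresholds, bounds and denominators, a replicate block, and each library left out. No test compares middle with other genes, and intervals cover counting error only. No gene sequence is shown, as none was used here.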

Additional observations from a re-analysis of the deposited data

Results flagged for a closer look

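In 141 groups of 4 libraries, 6 had a library set apart from the others by Dixon's criterion (the gap to the nearest library over the range, at its 95% critical value), which chance gives in about 1 of 20 groups. The median log2 deviation of middle genes minus other genes was 0.00340 in W3.25 replicate 1, against 0.0139 to 0.0158 in the other W3.25 libraries. The same library had 6.11 TPM of the helicase-related gene TraesCS3A02G212600, against 5.56 to 5.65 TPM. UPBEAT-A1 (TraesCS5A02G220100) had 26.6 TPM in W2 replicate 4 and 40.6 to 42.9 TPM in the other W2 libraries. TtWOX3b (TraesCS5B02G156400) had 1.29 TPM in W2 replicate 4 and 1.22 to 1.23 TPM in the others, on 12 to 14 counts per library. TraesCS3B02G256000 had 0 TPM in W2 replicate 1 and 0.0417 to 0.0482 TPM in the others, and TraesCS5B02G189700 had 0 TPM in W1 replicate 3 and 0.0470 to 0.0555 TPM in the others. In the last pair of genes each library of the group held 0 or 1 count.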

How the results depend on the processing

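The smaller share of falls in the middle from W2 to W3.0 kept its direction in every alternative run, and was -4.58 percentage points at an adjusted p of 0.05 and -2.28 for changes of at least 2-fold. The surplus of rises from W1 to W3.5 turned to -1.21 for changes of at least 2-fold and was 1.37 within classes of gene span. The difference in falls from W1 to W3.5 was -4.88 with low-confidence genes and -2.14 within classes of span. The difference in all calls for W2 against W1 was -2.43 with low-confidence genes, -0.63 without overlapping gene models and -1.46 to -0.59 with a library left out. For W3.25 against W3.0 it was -0.66 at p of 0.05, -0.13 with bounds of 30% and 70%, -0.10 for at least 2-fold changes and -0.36 to -0.18 with a library left out. For W3.5 against W1 it was -4.87 for at least 2-fold changes, and -0.64 without W1 replicate 1. For W3.5 against W3.25 it was -0.73 at p of 0.05, -0.03 for at least 2-fold, -0.78 with the compared stages alone, and -0.57 to -0.07 with a library left out. Middle genes called with at least 2-fold changes numbered 376, 455, 22, 15 and 906 in the order W2 against W1, W3.0 against W2, W3.25 against W3.0, W3.5 against W3.25 and W3.5 against W1. With bounds of 40% and 60%, 4707 genes were in the middle. Of these, DEGs of any size numbered 1191, 853 and 34 in the first 3 comparisons and 2465 in the last. For W3.25 against W3.0 there were 90 with DESeq2 alone, 120 at p of 0.05, 91 with bounds of 30% and 70%, and 26 to 72 with a library left out. For W3.5 against W3.25 there were 82 with DESeq2 alone, 72 with no filter, 118 at p of 0.05, 97 with the compared stages alone, 68 with the wider bounds, and 20 to 85 with a library left out. The share of counts from middle genes was 20.63% of high-confidence counts, 18.48% without the 10 genes with most counts, 12.73% with the narrower and 26.81% with the wider bounds. Results of single genes were rerun only with a replicate block, with each library left out and with another edgeR prior count. The last was checked for direction alone. Of 50 gene results, 43 kept their call in these runs, 7 lost it in at least 1 and 0 reversed. With a replicate block, 1737, 1275, 50, 41 and 3657 middle genes were called in the same order, and the difference in falls from W2 to W3.0 was -3.66. The block cost the calls of TraesCS2B02G342700 (-1.38), TraesCS5B02G145300 (-2.74) and TraesCS5B02G156400 (0.99). The numbers do not pair the libraries, since the deviations of 40 same-numbered pairs correlated at -0.0582 to 0.102 and 22 of 80 correlated best with their own number. The causes of these shifts were not tested. Depth limits genes with few counts per library, such as TtCLE14b with 3 to 24.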
